A study of Gallus gallus with 3 samples.

Results

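The genes described here encode inhibitors that act on the ERK branch of receptor tyrosine kinase signalling: the phosphatases DUSP4, DUSP5 and DUSP6, the Sprouty proteins SPRY1 and SPRY2, and the Sprouty-related proteins SPRED1 and SPRED2. They were taken as all probe sets to which the platform annotation gives 1 of these 7 symbols. All 7 genes were found, on 13 of the 38535 probe sets of the array, among 13009 named genes. A further 2 probe sets that the annotation shares between SPRED2 and another gene were left out.

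RNA was measured in chick endoderm, which forms the lining of the gut, on 1 Affymetrix Chicken Genome Array for each of 3 tissues. Early endoderm was all definitive endoderm from 500 embryos at Hamburger-Hamilton (HH) stages 4 to 5, lifted off with a needle. Foregut endoderm came from HH stages 10 to 11, in front of the anterior intestinal portal, and mid/hindgut endoderm from HH stages 8 to 10, behind the presumptive small intestine. Both later tissues were cut out with mesenchyme and freed of it after 30 minutes in 0.03% collagenase, a step the early tissue did not have. Each tissue was a pool gathered every 4 hours over 1 day, and no genotype or drug treatment separates the groups. With n = 1 array per tissue there is no replicate error and no p-value, and stage, position, dissection and array cannot be told apart.

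Fibroblast growth factors (FGFs) and other ligands bind receptor tyrosine kinases, which activate RAS and then the kinases RAF, MEK and ERK in turn. Active ERK induces genes for its own inhibitors, so the transcripts of DUSP and SPRY genes are widely read as targets of the pathway as well as brakes on it. FGF signalling acts on endoderm during gastrulation and when the gut is patterned from front to back.

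Signals are MAS5 intensities scaled to a common trimmed mean, and signals below 22.1 units, the 40th percentile of chicken probe sets, were set to that floor. The scaling factors were 0.881 for early endoderm, 1.09 for foregut and 1.06 for mid/hindgut. Where a gene had several probe sets, the one with the highest mean log2 signal stands for it. The spread between 2 probe sets of the same gene, over 4135 genes, gave a standard deviation (SD) of the log2 difference of 0.43 for foregut against early endoderm, 0.31 when mid/hindgut was set against early endoderm and 0.36 between the later tissues. This SD covers probe noise within arrays, not variation between pools. Endoderm markers were present in all 3 tissues, with 10 of 12 above the floor on each array, although GATA4 was below it on all 3. Endothelial markers were above the floor for 9 of 16 genes in early endoderm and for 15 of 16 in each later tissue. Lateral and gut mesenchyme markers were above it for 9 of 17 in early endoderm and 13 in each later tissue. POSTN, LUM and DCN were above it in the later tissues only, whereas COL1A2 and PDGFRA had their highest signal in early endoderm. Whether mesenchyme remained in the later pools was not tested.

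DUSP5 had the widest range over the 3 tissues of the 7 genes. Its signal was 9.74-fold lower in foregut and 9.45-fold lower in mid/hindgut than in early endoderm. SPRED2 was 2.10-fold lower in foregut on its brighter probe set, which is shared between transcripts, and 4.64-fold lower on the other. DUSP4, DUSP6, SPRY1, SPRY2 and SPRED1 were within 2-fold in all 3 comparisons, and no gene of the 7 was 2-fold higher in any.

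**Figure D1:**
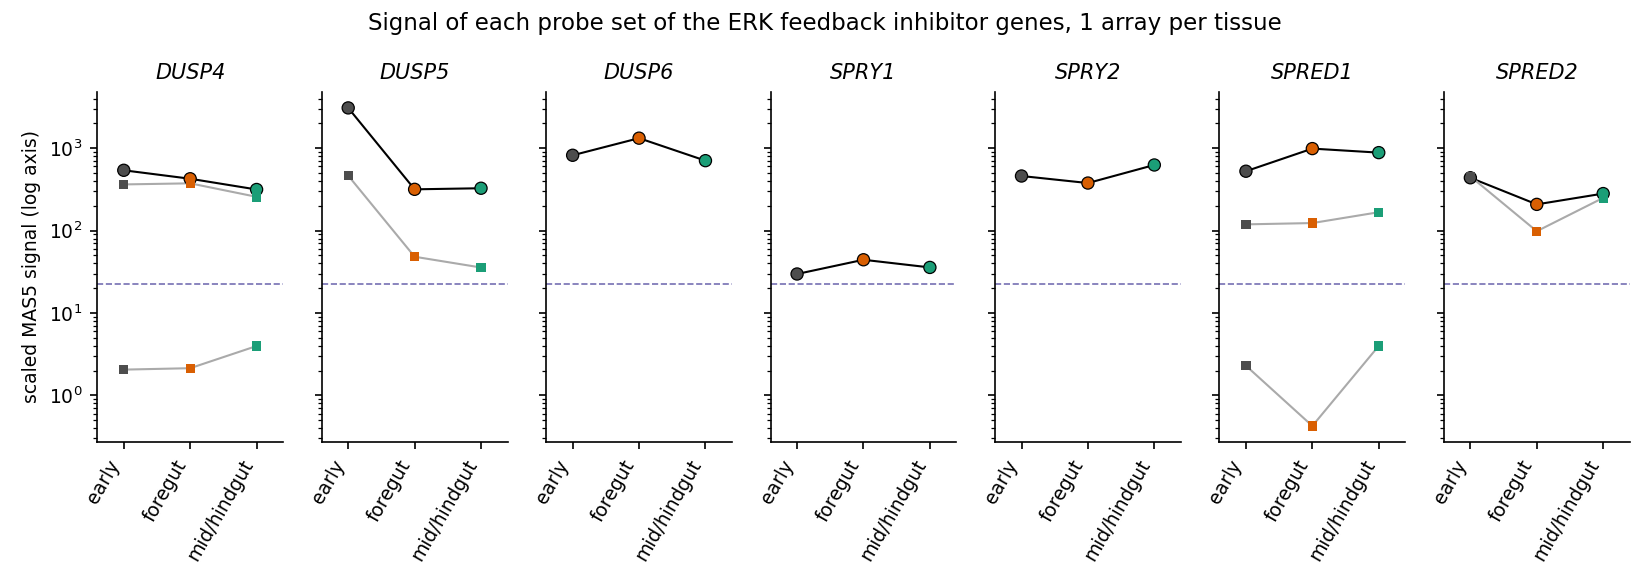
Scaled MAS5 signal, on a log axis, of the 13 probe sets in early, foregut and mid/hindgut endoderm, with 1 array per tissue. Circles joined by black lines are the probe set that stands for the gene, squares joined by grey lines are its other probe sets, and the dashed line is the floor of 22.1 units. The brighter probe set of DUSP5 lies at 3085 in early endoderm and at 317 and 326 in the later tissues, and the second probe set runs parallel to it.

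The phosphatases come first. DUSP5 is a nuclear phosphatase that removes phosphate from ERK and holds it in the nucleus. Its brighter probe set had a signal of 3085 in early, 317 in foregut and 326 in mid/hindgut endoderm. The early tissue was high and both later tissues were low and close to each other. The second DUSP5 probe set had signals of 464, 48.1 and 35.6 in the same order. It showed the same order between early and later tissues, with log2 differences of −3.27 for foregut and −3.71 for mid/hindgut against early, beside −3.28 and −3.24 for the first. Between foregut and mid/hindgut the first probe set gave −0.04 and the second 0.43, so these tissues were not separated.

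The DUSP5 differences from early endoderm were 7.66 and 10.5 times the SD between probe sets for foregut and mid/hindgut. In foregut against early endoderm, 36 of 10800 measured genes, DUSP5 included, had a log2 difference as low, which is 0.333%. In mid/hindgut against early endoderm it was 38 of 10745 genes, or 0.354%. The range of DUSP5 over the 3 tissues was wider than that of 98.2% of the 11136 genes above the floor on any array. Across 12 alternative ways of scaling, flooring and choosing probe sets, the DUSP5 log2 difference lay between −3.59 and −2.80 for foregut and between −3.50 and −3.21 for mid/hindgut. The floor settings could not move it, because its signals lay above every floor.

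In pooled tissue, fewer cells of a type and less RNA per cell cannot be told apart, so the place of the DUSP5 signal within the early pool is not given by these data. The paraxial mesoderm, notochord and neural crest marker lists had their highest summed signals in early endoderm. Notochord markers summed to 5997 in early, 2959 in foregut and 3954 in mid/hindgut endoderm, and neural crest markers to 1510, 805 and 934. TBXT, at 3598, 98.2 and 2420, weighed most in the notochord order. SNAI2, at 740, 107 and 108, and MSX1, at 517, 170 and 455, weighed most in the neural crest order. Of 7 measured in foregut against early endoderm, 1 notochord gene, TBXT, was lower and 2 higher. Of 7 neural crest genes, 2, SNAI2 and MSX1, were lower and 4 higher. Paraxial mesoderm genes were above the floor for 9 of 11 in early, 4 in foregut and 7 in mid/hindgut endoderm, with summed signals of 1411, 222 and 738. Most of that sum came from MSGN1, at 830, below the floor and at 376, and TBX6, at 262, below the floor and at 32.9. In foregut against early endoderm MSGN1 was at least 37.5-fold, TBX6 at least 11.9-fold and DUSP5 9.74-fold lower. In mid/hindgut against early endoderm MSGN1 was 2.21-fold, TBX6 7.97-fold and DUSP5 9.45-fold lower. Of 9 paraxial mesoderm genes measured against early endoderm, 4 were lower and 0 higher in foregut, and 3 lower and 0 higher in mid/hindgut. PCDH8 was at 50.7 in early endoderm and below the floor in both later tissues. PAX3 was at 66.6, below the floor and at 85.1. TCF15 was at 27.1, 35.5 and 32.4 and MEOX1 at 49.8, 63.9 and 59.6. MEOX2 and MYOD1 were below the floor on all arrays. The median of the list against early endoderm was −0.87 in foregut and −0.04 in mid/hindgut. The endoderm marker list also had its highest summed signal in early endoderm, 30515 against 17232 in foregut and 22375 in mid/hindgut. SOX17, at 9773, 878 and 4947, and CXCR4, at 6944, 1277 and 1102, weighed most in that order, whereas EPCAM, at 5357, 9297 and 8896, CDH1 and CLDN3 were higher in both later tissues. Endothelial markers went the other way, with summed signals of 548, 10814 and 13616, and CDH5 below the floor in early endoderm. The part of these cells in the DUSP5 difference was not tested.

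DUSP6 is the cytoplasmic phosphatase most selective for ERK, and in chick limb and neural tissue its transcript follows FGF signalling. Its single probe set had a signal of 821 in early, 1324 in foregut and 706 in mid/hindgut endoderm. Foregut was the highest, and early endoderm and mid/hindgut differed by −0.22 in log2, less than the SD between probe sets. Foregut was 1.61-fold above early endoderm and 1.88-fold above mid/hindgut, log2 differences of 0.69 and 0.91. Both stayed under 2-fold, and at 1.61 and 2.52 times the SD between probe sets they have no second DUSP6 probe set to set them against. With arrays scaled on the hybridisation controls, the foregut values became 1.17 against early endoderm and 1.47 against mid/hindgut, past 2-fold. Scaling on ribosomal protein genes also took the latter past 2-fold, to 1.01.

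DUSP4 is a nuclear phosphatase that acts on ERK and on the stress kinases JNK and p38. Its brightest probe set had a signal of 539 in early, 426 in foregut and 315 in mid/hindgut endoderm. A second probe set had 363, 375 and 257, and the third was below the floor on all 3 arrays, at 2.05, 2.13 and 3.97. Both measured probe sets were lowest in mid/hindgut, at log2 differences of −0.77 and −0.50 from early endoderm. They split on foregut against early endoderm, with −0.34 and 0.04, less than 1 SD from 0 in each case. Without scaling, the mid/hindgut difference of DUSP4 reached −1.04, past 2-fold.

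On their brightest probe sets DUSP4 and DUSP5 were highest in early endoderm and DUSP6 in foregut, and DUSP4 and DUSP6 were lowest in mid/hindgut. Early endoderm was not separated from foregut for DUSP4, nor from mid/hindgut for DUSP6, as each differed by less than the SD between probe sets. The second DUSP4 probe set was highest in foregut. The difference between the log2 changes of 2 genes on the same arrays does not depend on a scaling factor. For DUSP5 against DUSP6 that gap was −3.97 in foregut against early endoderm and −3.02 in mid/hindgut against early. For DUSP4 against DUSP6 it was −1.03 and −0.56.

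**Figure D2:**
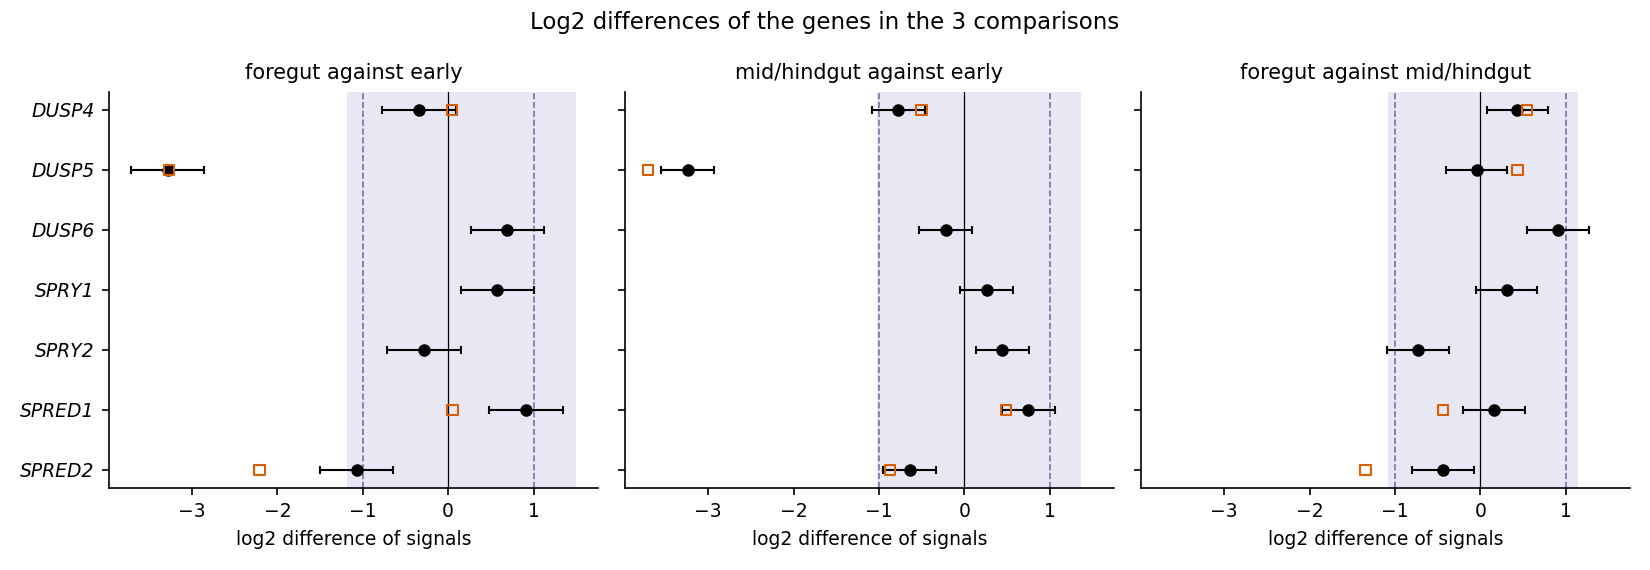
Log2 difference of scaled signals for each gene in the 3 comparisons, 1 array per tissue. Black circles are the probe set that stands for the gene, bars are ± 1 SD between probe sets of the same gene, open squares are other measured probe sets, the shaded band spans the 5th to 95th percentile of all measured genes and dashed lines mark 2-fold. DUSP5 lies outside the band in both comparisons with early endoderm, at −3.28 and −3.24, and the brightest probe sets of the other 6 genes lie inside it in all 3.

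Sprouty proteins are recruited at the membrane after receptor activation and dampen the signal to RAS and ERK. SPRY2 was measured by 1 probe set, with a signal of 460 in early, 378 in foregut and 626 in mid/hindgut endoderm. Mid/hindgut was the highest, and foregut and early endoderm differed by −0.28 in log2, less than the SD between probe sets. Mid/hindgut was 1.36-fold above early endoderm and 1.66-fold above foregut. For foregut against mid/hindgut the SPRY2 log2 difference was −0.73, or 2.02 times the SD between probe sets, and it ranged from −0.77 to −0.16 over the alternatives. SPRY2 and DUSP6 had opposite orders of foregut and mid/hindgut, and the gap of DUSP6 over SPRY2 in that comparison was 1.64.

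SPRY1 was close to the detection limit. Its single probe set had a signal of 29.7 in early, 44.2 in foregut and 35.7 in mid/hindgut endoderm, above the floor of 22.1 on every array. Of the 689 viral probe sets, which have no target in these samples as labelled, 0.581% in early, 0.726% in foregut and 0.435% in mid/hindgut endoderm had a signal as high as that of SPRY1. The log2 differences of SPRY1 were 0.57 for foregut and 0.26 for mid/hindgut against early endoderm, and 0.31 between the later tissues. The order of the 3 tissues is not firm for this gene, since noise this near the floor was not estimated and the signals fall below a floor at the 60th percentile. The related SPRY3 was below the floor on all arrays, and SPRY4 was above it in foregut alone, at 25.8.

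SPRED proteins, which share a C-terminal domain with Sprouty, bring the RAS inhibitor neurofibromin to the membrane. SPRED1 had its brightest probe set at 525 in early, 989 in foregut and 884 in mid/hindgut endoderm. Early endoderm was the lowest, and the later tissues differed by 0.16 in log2, less than the SD between probe sets. A second probe set, shared between transcripts, had signals of 119, 123 and 167, and the third was below the floor on all arrays, at 2.29, 0.42 and 3.98. The 2 measured probe sets of SPRED1 did not have the same size of difference. Foregut against early endoderm was 0.91 on the first and 0.05 on the second, whereas mid/hindgut against early endoderm was 0.75 and 0.49. Between foregut and mid/hindgut they differed in sign, with 0.16 and −0.44.

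SPRED2 was lowest in foregut on both of its probe sets. The brighter one, shared between transcripts, had a signal of 437 in early, 208 in foregut and 281 in mid/hindgut endoderm. The other had 455, 98.1 and 249. Early endoderm was thus the highest on both, mid/hindgut the middle and foregut the lowest, and each neighbouring pair differed by more than the SD between probe sets. The size depended on the probe set, with foregut against early endoderm at −1.07 and −2.21 in log2, mid/hindgut against early at −0.64 and −0.87, and foregut against mid/hindgut at −0.44 and −1.35. The call of SPRED2 as 2-fold lower in foregut was lost at −0.59 with scaling on the hybridisation controls. With that scaling foregut against mid/hindgut was 0.13 on the brighter probe set, so foregut was then not the lowest. Of the neurofibromin gene NF1, with which SPRED proteins act, the signals were 462, 247 and 486, also lowest in foregut but within 2-fold.

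On their brightest probe sets SPRED1 and SPRED2 went in opposite directions between early and later endoderm. SPRED1 was 1.88-fold higher and SPRED2 2.10-fold lower in foregut, and in mid/hindgut they were 1.68-fold higher and 1.56-fold lower. The gap between their log2 differences was 1.99 in foregut and 1.39 in mid/hindgut. No scaling factor changes it, but the choice of probe set does, from 1.13 to 3.13 in foregut and from 1.13 to 1.62 in mid/hindgut. The second SPRED1 probe set had 0.05 in foregut, less than the SD between probe sets. A SPRED1 direction in foregut thus rests on 1 probe set.

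Counts over the 7 genes were set beside those over all measured genes. In foregut against early endoderm 2 of 7 were at least 2-fold lower, beside 6.49% of 10800 measured genes, and 0 of 7 were higher, beside 10.6%. Their median log2 difference was −0.28 and that of all genes 0.08. In mid/hindgut against early endoderm 1 of 7 was lower, beside 5.13% of genes, and 0 higher, beside 8.12%, with a median of −0.22 against 0.03. Between foregut and mid/hindgut 0 of 7 differed 2-fold, beside 6.37% of genes higher and 5.74% lower, and the median was 0.16 against 0.02. The first 2 comparisons share the early array, so their values for a gene are not independent.

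**Figure D3:**
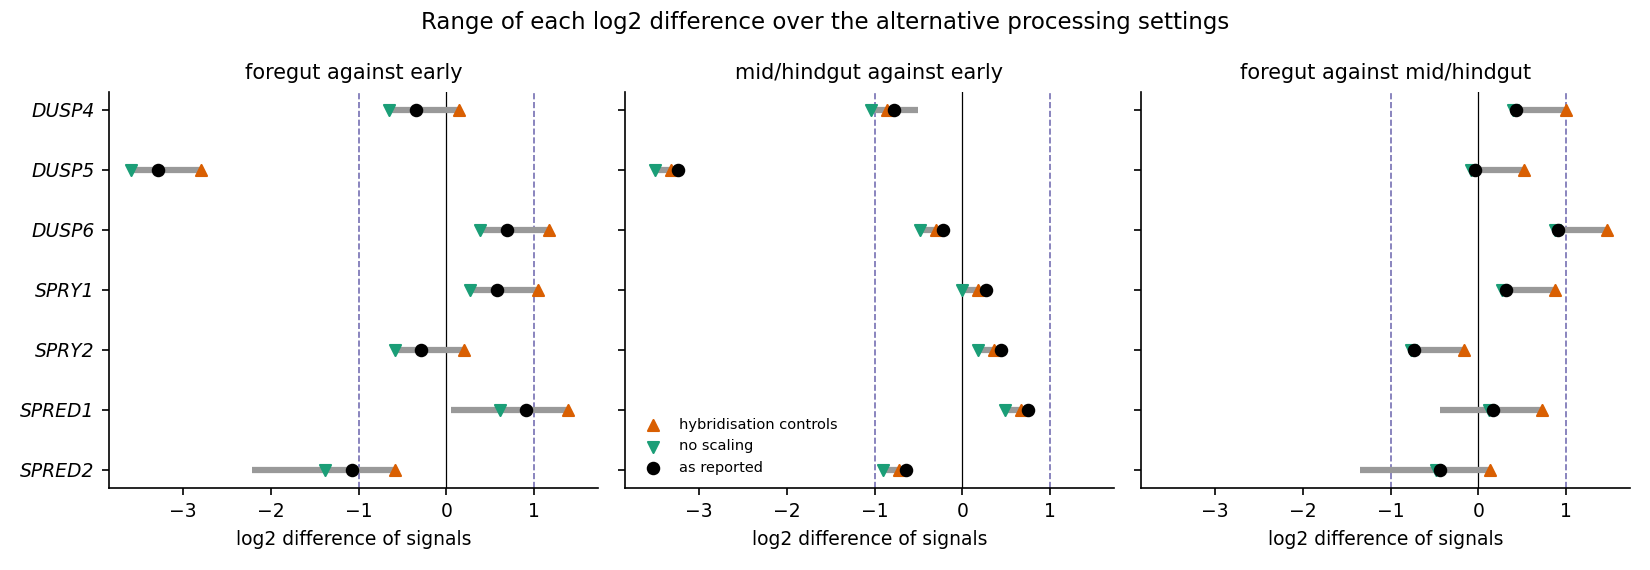
Log2 difference of each gene as reported (black circles) and its range over the alternative settings (grey bars), with the values from scaling on hybridisation controls (orange triangles pointing up) and from deposited values without scaling (green triangles pointing down). Dashed lines mark 2-fold. DUSP5 stays beyond −2.80 in both comparisons with early endoderm, while DUSP6, SPRY1 and SPRED1 pass 2-fold in foregut against early endoderm with the hybridisation controls.

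The choice of scaling moved all genes together. Scaling on the hybridisation controls moved the median of all genes in foregut against early endoderm from 0.08 to 0.52, and leaving the values unscaled moved it to −0.21. The signs of DUSP4 and SPRY2 in foregut against early endoderm flipped with the hybridisation controls, to 0.14 and 0.20. In foregut against mid/hindgut those of DUSP5 and SPRED2 flipped with them, to 0.52 and 0.13. Other settings also changed signs of small differences. DUSP5 in foregut against mid/hindgut became 0.02 with scaling on the median chicken probe set and 0.06 with scaling on ribosomal protein genes. Over the median of probe sets it became 0.20, and SPRED1 in that comparison became −0.44. That setting gave DUSP4 0.04 in foregut against early endoderm.

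Genes with a pattern over the 3 tissues most like those of DUSP5 and SPRED2 were found among 9123 genes above the floor on all arrays, by the Euclidean distance between centred log2 signals. For DUSP5 they were EOMES, a T-box factor of mesoderm and endoderm formation, at a distance of 0.33, PLB1, a phospholipase, at 0.33, and SNAI2, a repressor known from epithelial to mesenchymal transition, at 0.40. EOMES had signals of 598 in early, 79.1 in foregut and 60.7 in mid/hindgut endoderm, and SNAI2 had 740, 107 and 108. Only 6 genes lay within 0.5 log2 units of DUSP5. For SPRED2 the nearest were SH3RF2, PHYH and LIPML4, at 0.02 to 0.03, but 1227 genes lay within 0.5 units. The distance takes in the size of a change, and it used the brightest probe set of each gene alone. Against early endoderm the other SPRED2 probe set had −2.21 in foregut and −0.87 in mid/hindgut, beside −1.07 and −0.64. The genes nearest to SPRED2 are thus those of its brighter probe set only. With 3 tissues such likeness describes these arrays and has no test.

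The other genes of the pathway came from 7 lists, and their counts stand beside the shares of all genes given above, 10.6% higher and 6.49% lower in foregut and 8.12% and 5.13% in mid/hindgut. Among listed FGF genes, 6 of 11 measured were at least 2-fold higher and 2 lower in foregut than in early endoderm. In mid/hindgut 2 of 9 were higher and 3 lower. Not all of these encode secreted ligands: FGF12, higher in foregut, and FGF13, lower in both later tissues, do not. Of the 6 higher in foregut, FGF1, FGF2 and FGF10 were below the floor in early endoderm and so were measured only through foregut. The 2 higher in mid/hindgut were FGF10 and FGF19, and FGF10 was measured there only through mid/hindgut. FGF19 had signals of 129, 1024 and 297 and FGF3 of 99.9, 511 and 129 in early, foregut and mid/hindgut endoderm. FGF18 had signals of 1122, 299 and 218 in early, foregut and mid/hindgut endoderm, and FGF8 had 348, 526 and 157. Listed receptor genes were higher for 8 of 16 and lower for 5 in foregut. In mid/hindgut 4 were higher and 3 lower. FGFR2, lower in foregut, had signals of 2314, 717 and 1971. FGFRL1, counted as higher in both later tissues, lacks a kinase domain. The endothelial receptors FLT1 and FLT4 led in both later tissues. FLT1 and FGFR4 were below the floor in early endoderm and so were measured only through the later tissues. The FLT1 differences from early endoderm are therefore bounds. Of adaptors, 1 of 10 was lower in foregut, GAB2, a docking protein, at 400, 74.2 and 164. Of 14 measured genes of RAS, RAF and MEK and their partners, RAP1A, a RAS-related GTPase, was higher in both later tissues at 348, 838 and 770, and none was lower.

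Of 13 measured ERK target genes, 6 were higher and 2 lower in foregut, with a median of 0.61, and 3 were higher and none lower in mid/hindgut, with a median of 0.54. The 3 genes called in mid/hindgut were EGR1, JUN and ID1. In foregut ETV4, ELK3 and SPHK1 were called higher as well. SPHK1, at 34.2 in early and 68.4 in foregut endoderm, only just reached 2-fold. The counts and medians describe the list, and whether ERK set the signals of its genes was not tested. ID1 had signals of 600 in early, 4938 in foregut and 1576 in mid/hindgut endoderm. EGR1, JUN and MYC, but not ID1, also belong to the list of immediate early genes. ETV4, an ETS factor induced by FGF, had signals of 104 in early, 319 in foregut and 152 in mid/hindgut endoderm, and the related ETV5 had 563, 860 and 618. Both had their highest signal in foregut, ETV5 within 2-fold. The third such gene, ETV1, had signals of 495, 454 and 483, and its tissues differed by less than the SD between probe sets. EGR1, an immediate early factor, had signals of 353 in foregut and 330 in mid/hindgut and did not reach the floor in early endoderm, so it was at least 14.9-fold higher in mid/hindgut. The streak gene TBXT, at 3598, 98.2 and 2420, and MYC, at 969, 298 and 658, were lower in foregut.

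No other DUSP gene that was measured was 2-fold lower in a later tissue, as DUSP5 was. Of the 21 listed, 17 were found on the array, and DUSP2, DUSP9, DUSP11 and DUSP18 were not. Of 14 measured in foregut against early endoderm 3 were higher and none lower, and of 13 in mid/hindgut 2 were higher and none lower. DUSP1, an immediate early phosphatase for several MAP kinases, had signals of 125, 919 and 542, which is 7.35-fold higher in foregut and 4.34-fold higher in mid/hindgut. DUSP23 had signals of 55.8, 185 and 134. Immediate early genes, many of which are known to be induced when tissue is handled, were higher for 8 of 11 measured and lower for 1 in foregut, and higher for 6 of 13 in mid/hindgut, and their summed signals were 3305, 5238 and 5362. DUSP1 is itself on that list, and without it 7 of 10 were higher in foregut and 5 of 12 in mid/hindgut, with summed signals of 3180, 4319 and 4820. The array holds 17 of the immediate early genes, but FOS, FOSL2, IER3 and KLF4 did not reach the floor in any tissue. These genes were therefore not counted, and EGR1 was counted through its signals in the later tissues alone. Of all measured genes, 10.6% were higher and 6.49% lower in foregut, and 8.12% were higher in mid/hindgut. The part of handling in the DUSP1 difference was not tested. Of other negative regulators of RAS and ERK, 0 of 15 measured differed 2-fold in either comparison with early endoderm, and 0 of 16 between the later tissues. Among them IL17RD, a membrane inhibitor of FGF signalling, had signals of 533, 665 and 839. Its foregut and mid/hindgut signals differed by −0.34 in log2, less than the SD between probe sets.

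**Figure D4:**
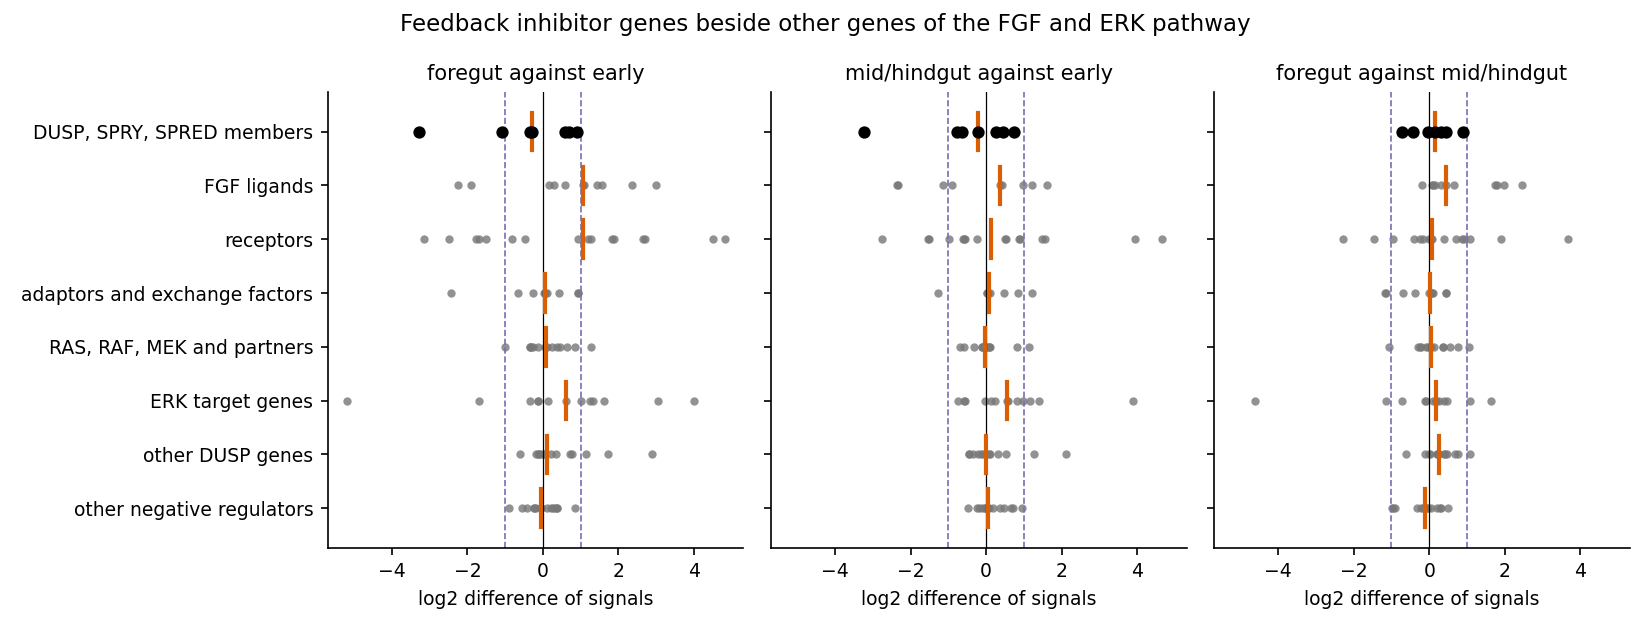
Log2 differences of the 7 feedback inhibitor genes (black points, top row) and of the measured genes of 7 pathway lists (grey points) in the 3 comparisons, 1 array per tissue. Orange bars are medians and dashed lines mark 2-fold. All measured genes of the list of other negative regulators lie within 2-fold, and DUSP1 is the highest of the other DUSP genes at 2.88 in foregut and 2.12 in mid/hindgut against early endoderm.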

How the data were processed

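The authors deposited MAS5 signal intensities on a linear scale, per the submitters' processing notes. The MAS5 version is not given in the sources used here. Per the labels, 5 µg of total RNA was biotin-labelled for each of the 3 arrays. Detection calls were not used here.

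Arrays whose trimmed means (2% off each tail) differed by more than 10% were scaled to their average. Of the probe sets, 27178 had 1 gene, 177 several and 11180 none, and 26863 were matched by gene identifier to a current chicken gene table for their symbols. Genes above the floor on either array of a comparison were counted as measured, and a call means at least 2-fold. Calculations used Python 3.11.15 with pandas 2.3.3 and were tested on simulated data. The precision is limited by the 3 arrays, 1 per tissue.

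The genes and lists were chosen with earlier results of these data known. Named are all 7 genes, some of the list genes among the 4 largest 2-fold differences of a list and comparison, and the 3 nearest in pattern. SPRY3, SPRY4, NF1, FGF1, FGF2, FGFR4, ETV1, ETV5, ELK3, SPHK1 and IL17RD were named for their role or after their values were seen. So were the immediate early genes below the floor and the cell markers. Alternatives changed the scaling, the floor, the filter, the probe set rule and the fold, 13 in all. No sequences were used here.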

Additional observations from a re-analysis of the deposited data

Results flagged for a closer look

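A few genes had a foregut difference from early endoderm of one sign and a mid/hindgut difference of the other. With 1 array per tissue the difference between the tissues was not tested, and the values below are log2 differences for foregut against early, mid/hindgut against early and foregut against mid/hindgut. DUSP6 had 0.69, −0.22 and 0.91. SPRY2 had −0.28, 0.44 and −0.73. Both stayed under 2-fold in each comparison, and the −0.22 of DUSP6 and −0.28 of SPRY2 were less than the SD between probe sets. Of the pathway genes, FGF8 had 0.60, −1.15 and 1.74, and FGF12 had 1.56, −0.90 and 2.46. Among receptors, KIT had 2.70, −0.97 and 3.67, MET had −1.76, 0.52 and −2.28, and ERBB4 had 1.28, −0.61 and 1.89. KIT and ERBB4 were below the floor in mid/hindgut, so their values against that tissue are bounds. The MEK gene MAP2K2 had 0.45, −0.59 and 1.04, and the RAF scaffold KSR1 had −0.25, 0.81 and −1.06.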

How the results depend on the processing

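Under 13 alternatives DUSP5 was at least 2-fold lower than early endoderm in both later tissues each time, also at 3-fold. The floors, the filter and leaving out shared probe sets could not move its values. Its signals of 317 or more lay above the highest floor, 60.5, and its brighter probe set is not shared. Counts of the 7 genes changed in 7 cases and were the same in 71. With scaling on the hybridisation controls, 3 genes, DUSP6, SPRY1 and SPRED1, were higher and 1, DUSP5, was lower in foregut against early endoderm, and 1, DUSP6, was higher in foregut than in mid/hindgut. Scaling on ribosomal protein genes also gave 1 gene, DUSP6, higher in foregut than in mid/hindgut. Without scaling, 2 genes, DUSP4 and DUSP5, were lower in mid/hindgut than in early endoderm. At 3-fold 1 gene, DUSP5, was lower in foregut. Without probe sets shared between transcripts, 1 gene, SPRED2, was lower in foregut than in mid/hindgut, because its other probe set was then used. Over the median of its probe sets SPRED1 had 0.05 and SPRED2 −1.64 in foregut against early endoderm. No 2-fold difference of the 7 genes reversed its sign. SPRY1 has no value with a floor at the 60th percentile. The cause of the shift with the hybridisation controls was not tested. No paired analysis was possible because each tissue has 1 array. Noise near the floor was not estimated, which limits SPRY1, and no setting replaces a second pool of each tissue.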
